A study of Homo sapiens with 4 samples.

Results

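RNase P and RNase MRP are related ribonucleoprotein enzymes, and the genes of their RNA and protein components were followed here in 2 human mantle cell lymphoma lines after knockdown of BTK. The 10 genes were RMRP and RPPH1, which encode the RNA components, and the protein subunit genes POP1, POP4, POP5, POP7, RPP14, RPP30, RPP38 and RPP40. They were found by symbol among the 25277 symbols of the deposited table, and all 10 passed the minimum of 1 FPKM on average over the 4 libraries that left 11484 symbols. FPKM is the number of fragments scaled to transcript length and to the mapped fragments of the library. RMRP and RPPH1 were chosen by their FPKM values, which were higher in the hairpin than in the control library of both lines, and the protein genes were added as their partners, so that difference is described below without a test.

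RNase P is a ribozyme that removes the 5′ leader of precursor tRNAs, and its catalytic part is the RPPH1 RNA, also called H1. RNase MRP shares most of the protein subunits and is built on the RMRP RNA; it cuts the precursor of ribosomal RNA in the spacer that follows the 18S sequence. Both RNAs are made by RNA polymerase III from promoters that lie upstream of the transcribed sequence, and neither carries a poly(A) tail. Inherited defects of RMRP cause cartilage-hair hypoplasia, a disorder of bone growth that is often accompanied by immune deficiency with poor lymphocyte proliferation.

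Mino and Z138 are established lines of mantle cell lymphoma, a B cell cancer. Each stable line carried, in a Tet-on vector, either a small hairpin against BTK or a control called sc4, and all 4 cultures, controls included, had received doxycycline for 48 hours. BTK encodes the kinase downstream of the B cell receptor. There was 1 library for each of the Z138 hairpin, Z138 control, Mino hairpin and Mino control cultures, 1 hairpin per line, and no replicate culture, and the labels do not say what sc4 expresses. BTK was at 12.4 FPKM in the Z138 hairpin library and 51.0 in the Z138 control, and at 9.84 FPKM in the Mino hairpin library and 37.0 in the Mino control.

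The B cell markers MS4A1, CD79A, CD79B and PAX5 and the mantle cell factor SOX11 were at 14.5 FPKM or more in every library. CCND1, the cyclin gene whose translocation is the hallmark of the disease, was at 600 and 591 FPKM in Z138 but at 2.62 and 3.18 in Mino, and CD5 was at 0.0531 and 0.0751 FPKM in Z138 and at 1.70 and 2.33 in Mino, hairpin library first. The hallmark gene was thus low in the libraries labelled Mino, whose identity was not tested further, and each comparison of the lines below rests on the labels. Of 9 marker genes of T, myeloid, red and epithelial cells, CD2 and HBB were listed at 0 throughout. The highest values were 7.56 and 7.29 FPKM for EPCAM in the Mino hairpin and control libraries. KRT18, also epithelial, was at 6.13 and 6.07 FPKM in those of Mino and at 0 in those of Z138. In Z138 the highest was the T cell gene CD3E, at 2.07 and 1.69 FPKM, hairpin library first. The summed level of the 9 was 2.37 and 1.93 FPKM in Z138 and 14.5 and 13.9 FPKM in Mino. Read depth is unknown. The Z138 control stood apart in its lowest values, where no step ratio to another library was shared by more than 6.52% of symbols, against 16.0% to 20.2% between the other libraries. The differences between hairpin and control are therefore given for each line by itself, and those in Mino do not use that library, whereas every comparison between the lines does.

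The sequences of both RNAs are shown because their levels carry the main observation. They come from GENCODE release 29 on GRCh38, a later build than the hg19 named in the submitters' processing notes. RMRP is a gene of 1 exon on the minus strand of chromosome 9, at chr9:35657751-35658018, with 268 bases. RPPH1 is a gene of 1 exon on the minus strand of chromosome 14, at chr14:20343075-20343407, with 333 bases. RMRP is shown whole and RPPH1 from base 1 to base 300, and capitals mark the runs of at least 8 bases found in both.
RMRP: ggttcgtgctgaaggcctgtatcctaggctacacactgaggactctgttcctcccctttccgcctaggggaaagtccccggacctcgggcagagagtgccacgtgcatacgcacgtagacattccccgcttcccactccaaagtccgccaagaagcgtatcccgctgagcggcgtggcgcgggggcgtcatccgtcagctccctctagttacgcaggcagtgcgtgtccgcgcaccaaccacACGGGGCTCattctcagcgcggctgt
RPPH1: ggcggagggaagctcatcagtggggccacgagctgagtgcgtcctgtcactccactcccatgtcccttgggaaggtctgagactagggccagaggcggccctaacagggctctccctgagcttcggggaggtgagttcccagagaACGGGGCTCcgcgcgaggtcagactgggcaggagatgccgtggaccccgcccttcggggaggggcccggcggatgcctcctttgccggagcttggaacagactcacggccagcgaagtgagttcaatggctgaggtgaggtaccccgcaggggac
The RNAs share 1 such run, of 9 bases, and in a global alignment 47.2% of 345 columns were identical. GC content was 63.1% for RMRP and 64.6% for RPPH1. No longer identical stretch was found with both RNAs read in the same direction. Opposite strands, inexact matches of a read and copies elsewhere in the genome were not examined.

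RMRP was higher in the hairpin library of both lines. It was at 189 FPKM in the Z138 hairpin library, against 55.5 FPKM in the Z138 control, and at 329 FPKM in the Mino hairpin library, against 143 FPKM in the Mino control. Both hairpin values lay above both control values. The ratio of FPKM was 3.40 in Z138 and 2.30 in Mino. As differences on the log2(FPKM + 1) scale, which is used for all log2 values here and understates the change of low genes, these were 1.75 and 1.20, with a mean of 1.47 ± 0.39 (SD over 2 lines).

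RPPH1 showed the same direction with wider ratios. It was at 71.4 FPKM in the Z138 hairpin library, against 13.5 FPKM in the Z138 control, and at 116 FPKM in the Mino hairpin library, against 46.6 FPKM in the Mino control. Again the hairpin and control values did not overlap. The FPKM ratio was 5.29 in Z138 and 2.49 in Mino, and the log2 differences were 2.32 and 1.30 (mean 1.81 ± 0.72, SD over 2 lines). These were among the widest differences in the table. Among 11150 tested symbols above 0 in every library, 0 had a higher log2 difference than RPPH1 in Z138 and 3 did in Mino, and for RMRP the numbers were 5 and 6. Both hairpin libraries lay above both controls in 3.45% of the 11484 tested symbols. At least 2-fold higher in both lines were 0.0697% of the 11484 symbols, 8 in all. Of these, 4 were above 0 in every library, RMRP and RPPH1 among them. Since these values chose the pair, the shares are background and no test.

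**Figure D1:**
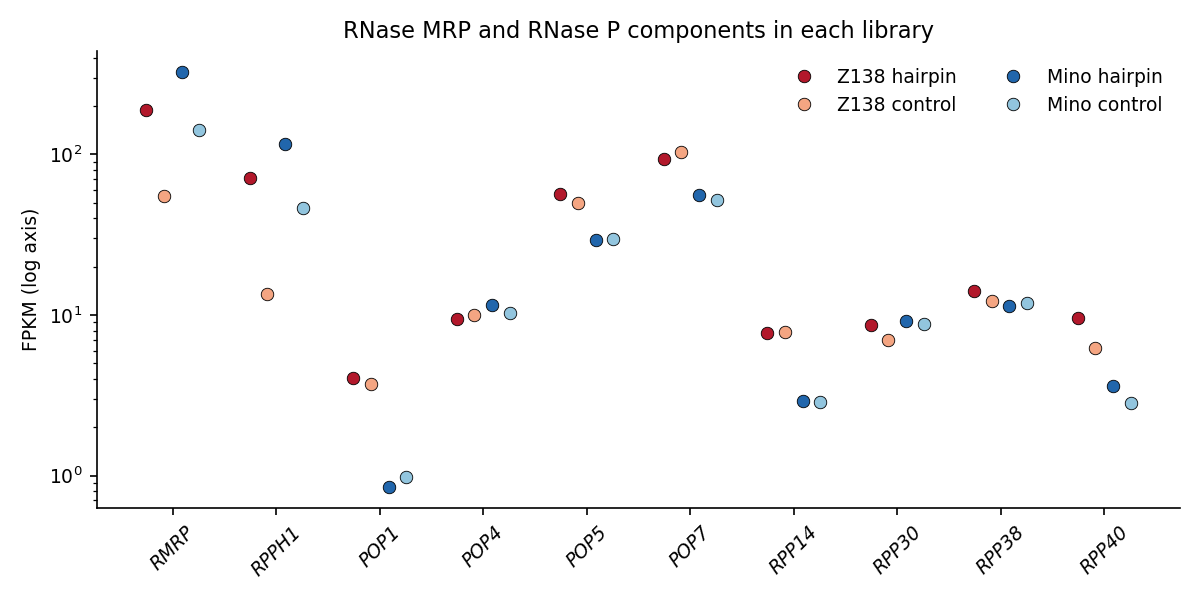
FPKM (log axis) of the 10 genes in the 4 libraries, 1 point per library, Z138 hairpin, Z138 control, Mino hairpin and Mino control from left to right. For RMRP and RPPH1 both hairpin points stand above both control points, whereas the protein subunit genes have hairpin and control points close together within a line.

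The balance of the RNAs differed less between hairpin and control than their levels. RMRP was 2.65 times RPPH1 in FPKM in the Z138 hairpin library and 4.11 times in the Z138 control, and 2.83 times in the Mino hairpin library and 3.06 times in the Mino control. FPKM is scaled to length, so these compare levels per length. RMRP stood above 97.3% of the symbols expressed above 0 in the Z138 hairpin library and above 91.4% in the Z138 control, and above 98.6% in the Mino hairpin library and 96.9% in the Mino control. RPPH1 stood above 93.0% and 70.7% in the Z138 hairpin and control libraries and above 96.1% and 89.4% in those of Mino. These are ranks of FPKM, and how well short RNAs without a poly(A) tail compare with mRNAs in it was not tested.

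The genes of the protein subunits did not share this difference. None of the 8 differed by 1.5-fold on the log2(FPKM + 1) scale between hairpin and control in either line. Across all tested symbols, 0.94% were higher and 0.819% lower by that much in Z138, and 0.923% were higher and 1.24% lower in Mino, so a count of 0 of 8 is near the background. Their log2 differences ran from −0.15 to 0.55 in Z138 and from −0.10 to 0.27 in Mino. The widest, that of RPP40 in Z138, had an FPKM ratio of 1.54 and so passed 1.5-fold without the added 1 FPKM. The medians were 0.14 and 0.03, beside 0.03 and −0.01 over the 11150 tested symbols above 0 in every library. Against the median protein subunit, RMRP was 19.8 times as high in the Z138 hairpin library and 6.21 times in the Z138 control, and 32.0 times as high in the Mino hairpin library and 14.9 times in the Mino control. The same quotient for RPPH1 was 7.49 and 1.51 in Z138 and 11.3 and 4.85 in Mino, hairpin library first. How fully the libraries held short RNAs without a poly(A) tail is unknown, and 7 of 8 symbols for further polymerase III transcripts were listed at 0 throughout. These quotients therefore compare FPKM values and not amounts in the cells. In bulk RNA, fewer cells that express a gene and less RNA per cell cannot be told apart.

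**Figure D2:**
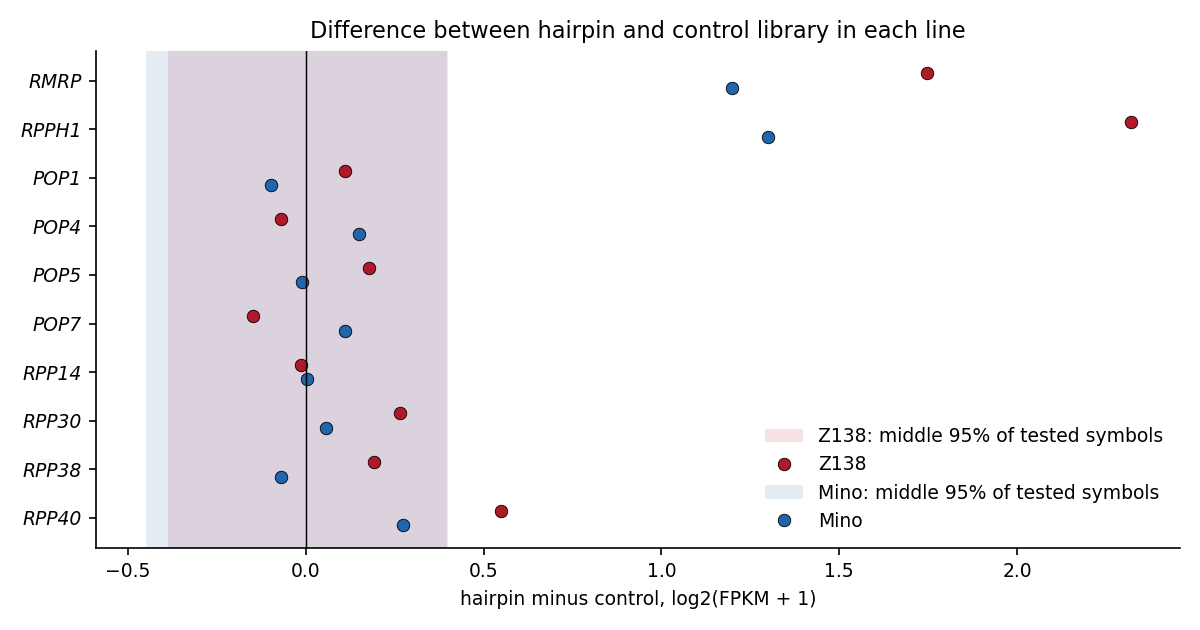
Difference between hairpin and control library on the log2(FPKM + 1) scale for the 10 genes, 1 point per line, with shaded bands for the middle 95% of the 11484 tested symbols in each line (−0.39 to 0.40 in Z138, −0.45 to 0.40 in Mino). RMRP and RPPH1 lie beyond both bands in both lines, and RPP40 lies beyond its band in Z138 alone.

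RPP40, a subunit of the RNase P holoenzyme, had the widest difference of the 8. It was at 9.57 FPKM in the Z138 hairpin library and 6.23 in the Z138 control, and at 3.61 FPKM in the Mino hairpin library and 2.81 in the Mino control. The FPKM ratios were 1.54 and 1.28, and the log2 differences 0.55 and 0.27. Among the 11150 symbols above 0 in every library, 64 had a larger value for the smaller of their differences in the 2 lines. RPP30, which binds the RNA in the complex, was the other gene that was higher in both hairpin libraries. It was at 8.65 FPKM in the Z138 hairpin library and 7.04 in the Z138 control, and at 9.24 FPKM in the Mino hairpin library and 8.85 in the Mino control. Neither RPP40 nor RPP30 kept its hairpin values apart from its control values over both lines. Of the 11150 symbols above 0 in every library, 2618 were likewise higher in both lines, so a count of 2 of 8 is near the background.

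The other 6 protein genes differed in opposite directions in the lines or hardly at all. POP1, the largest subunit and a scaffold of both enzymes, was at 4.08 FPKM in the Z138 hairpin library and 3.71 in the Z138 control, and at 0.847 FPKM in the Mino hairpin library and 0.978 in the Mino control. POP5, whose fold resembles the protein subunit of bacterial RNase P, was at 56.5 and 49.8 FPKM in the Z138 hairpin and control libraries and at 29.4 and 29.6 FPKM in those of Mino. RPP38, which binds a kink-turn of the RNA, was at 14.02 and 12.1 FPKM in the Z138 hairpin and control libraries and at 11.3 and 11.9 FPKM in those of Mino. These 3 genes were thus slightly higher in the Z138 hairpin library and slightly lower in that of Mino.

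POP7, which pairs with RPP25 on the RNA, was at 93.3 and 103 FPKM in the Z138 hairpin and control libraries and at 56.1 and 51.9 FPKM in those of Mino. POP4, which has a counterpart in the RNase P of archaea, was at 9.50 and 10.02 FPKM in the Z138 hairpin and control libraries and at 11.6 and 10.3 FPKM in those of Mino. RPP14, the partner of POP5 in the complex, was at 7.76 and 7.84 FPKM in the Z138 hairpin and control libraries and at 2.90 and 2.89 FPKM in those of Mino. POP7 and POP4 were slightly lower in the Z138 hairpin library and higher in that of Mino, and RPP14 was nearly level in both. With 1 library per line and vector, differences of this size have no replicate spread to be set against.

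In level, the order of the 10 genes depended on the library. RMRP came first in the Z138 hairpin library and in both Mino libraries, while POP7 came before it in the Z138 control. POP7 had the highest and POP1 the lowest value of the protein genes in all 4 libraries. RPPH1 stood above POP7 in the Mino hairpin library and below it in the other 3. Without replicates, neighbours in these orders cannot be said to differ, and the orders are of FPKM and not of amounts in the cells.

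The difference between the lines was then compared for the protein subunit genes, since it had no part in their choice. The test was limma's, with an additive term each for line and hairpin, over all tested symbols and Benjamini-Hochberg adjustment at 0.05. Its error has 2 parts. How unlike the lines were in a gene's hairpin difference gave 1 degree of freedom, and a variance trend borrowed from all tested symbols counted for 6.885. The SE and p-values thus rest more on the borrowed trend than on a gene's own spread. Of the 8 genes, 5 were higher in Z138, none was lower, and 3 did not pass. Between these lines 67.4% of the 11484 symbols passed, 28.7% higher and 38.8% lower in Z138, so a difference of this kind is the rule. Of all symbols that passed, 42.5% were higher in Z138 as deposited and 53.1% under quantile normalization, which shifted the median difference of all symbols to 0.05, against −0.12 as deposited. Libraries of the lines did not overlap for any of the 8 genes, nor for 86.1% of all tested symbols.

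POP1 differed the most of the 8 between the lines, with 4.08 and 3.71 FPKM in Z138 against 0.847 and 0.978 FPKM in Mino. Its log2 difference was 1.36 (SE 0.14, adjusted p = 6.74e-05 in limma, higher in 2 of 2 Z138 libraries). RPP14 was higher in Z138 than in Mino by 1.18 (SE 0.14, adjusted p = 0.000125 in limma). RPP40 was higher in Z138 by 1.06 (SE 0.15), with an adjusted p of 0.000312 in limma. Without the Mino control, and with cell line alone in the model, RPP40 no longer passed (adjusted p = 0.0604 in limma). The more abundant POP7 and POP5 were higher in Z138 by 0.85 (SE 0.13) and 0.83 (SE 0.13), with adjusted p of 0.00047 and 0.000551 in limma. POP4, RPP30 and RPP38 had differences of −0.15 (SE 0.14), −0.19 (SE 0.14) and 0.16 (SE 0.14), with adjusted p of 0.355, 0.255 and 0.344 in limma. Summed over the 8 genes, the level was 203 and 200 FPKM in the Z138 hairpin and control libraries and 125 and 119 FPKM in those of Mino.

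The RNA components had the other sign. RMRP differed between Z138 and Mino by −0.80 on the log2 scale in the hairpin libraries and by −1.35 in the controls, and RPPH1 by −0.69 and −1.71. These are given without a test, because the agreement of the lines that drew attention to the pair is also part of the error of this comparison. The lines overlapped for both RNAs, as the Z138 hairpin library held more of each than the Mino control did.

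Of the subunits outside the 10 genes, RPP25 gave the widest difference between lines. RPP25 and its paralogue RPP25L are Alba-family proteins, and RPP25 binds the RNA as a dimer with POP7. RPP25 was at 0.166 and 0.297 FPKM in the Z138 hairpin and control libraries and at 21.9 and 24.3 FPKM in those of Mino, a log2 difference of −4.29 (SE 0.14, lower in 2 of 2 Z138 libraries, with an adjusted p of 2.03e-07 in limma). RPP25L was present in both lines, at 28.1 and 33.6 FPKM in Z138 and at 26.0 and 20.9 FPKM in Mino, hairpin library first. It did not pass between the lines (log2 difference 0.38, SE 0.16, adjusted p = 0.0600 in limma), but passed under median-of-ratios scaling (adjusted p = 0.0137), under quantile normalization (0.0472) and without symbols listed at 0 (0.0267). Between hairpin and control, RPP25 had log2 differences of −0.15 in both Z138 and Mino, and RPP25L −0.25 and 0.30. RPP21, a subunit of RNase P, was listed at 0 in all 4 libraries, which may be a failed estimate.

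**Figure D3:**
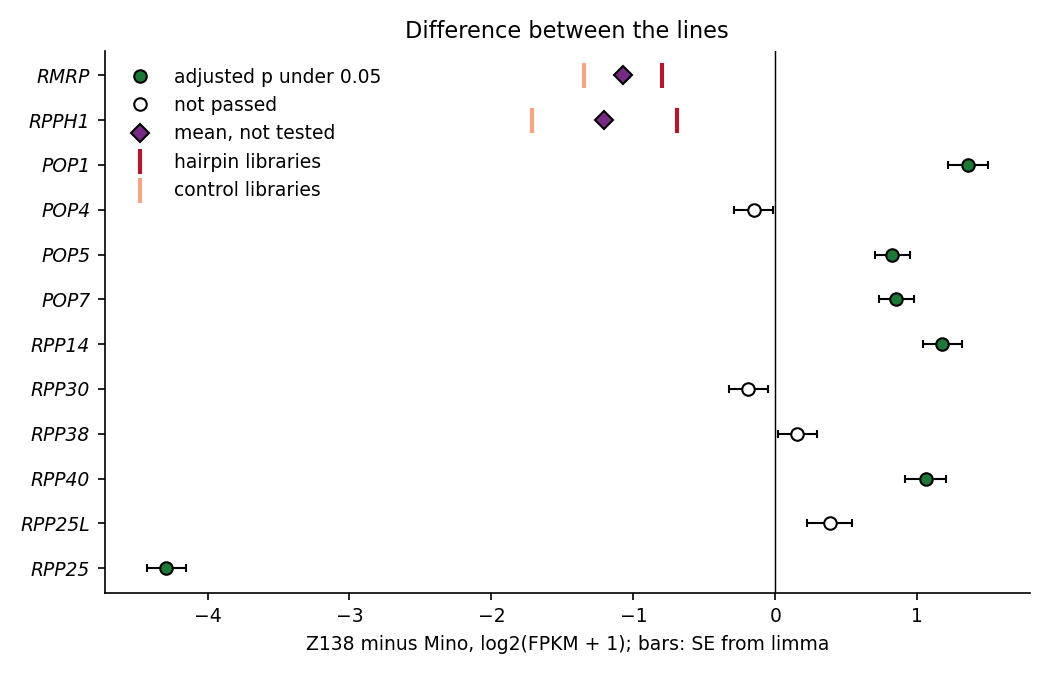
Z138 minus Mino on the log2(FPKM + 1) scale for the 10 genes and for RPP25 and RPP25L. Points with bars are limma estimates with their SE, filled where the adjusted p was under 0.05; diamonds are means for the untested RNA components, with ticks for the hairpin and the control libraries. RMRP, RPPH1 and RPP25 stand to the left of 0, and POP1, POP5, POP7, RPP14 and RPP40 to the right.

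The genes next to RMRP and RPPH1 showed no difference of like size in the same direction. CCDC107, which starts beside RMRP and points the other way, was at 3.83 and 3.74 FPKM in the Z138 hairpin and control libraries and at 4.52 and 4.65 FPKM in those of Mino. PARP2, a DNA repair enzyme gene that shares its promoter region with RPPH1, was at 21.6 and 20.2 FPKM in the Z138 hairpin and control libraries and at 35.9 and 34.9 FPKM in those of Mino. CCNB1IP1, on the far side of RPPH1, had log2 differences of 0.17 in Z138 and 0.18 in Mino. Its hairpin values lay above both control values, as in 3.45% of all tested symbols, whereas those of SIT1 near RMRP lay below both. Among the other neighbours of RMRP, SIT1 had −0.17 and −0.32, CD72 −0.61 and −0.65, TESK1 −0.63 and 0.12, ARHGEF39 −0.15 and 0.06, and TPM2 0.03 and −0.52. CA9 was listed at 0 in the Z138 hairpin library and FAM166B was under 0.225 FPKM throughout. Around RPPH1, TTC5 had −0.10 and −0.15, TEP1 0.08 and −0.11, OSGEP −0.03 and −0.17 and APEX1 0.00 and −0.19, while OR4K15 and DUXAP10 were listed at 0 in at least 2 libraries. CA9 had −1.11 in Mino. The neighbours that differed by 1.5-fold in a line (CD72, TESK1 and CA9) were thus lower in its hairpin library, unlike RMRP beside them.

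The promoters of RMRP and RPPH1 are read through the SNAPc complex, TBP, BRF2 and BDP1 with the activators POU2F1 and ZNF143, and none of these 10 genes differed by 1.5-fold in either line (medians 0.04 in Z138 and −0.10 in Mino). With 0.94% of all tested symbols higher and 0.819% lower by that much in Z138, and 0.923% and 1.24% in Mino, a count of 0 of 10 is near the background. The SNAPc gene SNAPC5 had log2 differences of −0.17 and −0.23, BRF2 −0.16 and −0.11, and SNAPC2 −0.30 and −0.06. Between the lines 1 of the 10 was higher and 2 were lower in Z138, beside 28.7% and 38.8% of all tested symbols, with ZNF143 (adjusted p = 0.00737 in limma) and TBP (adjusted p = 0.00927) the lower ones. Likewise 0 of 22 genes for RNA polymerase III subunits, its other factors and its repressor MAF1 differed by 1.5-fold (medians 0.04 and 0.00), again near the background. The polymerase subunit genes POLR3C (0.12 and 0.16) and POLR3E (0.06 and 0.18) were higher in both hairpin libraries, and GTF3C1 (−0.04 and −0.09) was lower in both. GTF3A, which reads the 5S rRNA gene, had 0.13 and −0.36. Between the lines 13 of the 22 were higher and 3 lower in Z138, beside the same shares over all symbols, with GTF3A (175 and 160 FPKM in Z138, 53.4 and 68.7 in Mino, hairpin library first) and POLR3C furthest apart.

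Genes that act on the same substrates gave no count apart from the background between hairpin and control, where 0.819% to 1.24% of all tested symbols passed 1.5-fold in a given direction and line. Of 15 tRNA maturation genes, 0 differed by 1.5-fold in either line (medians 0.07 in Z138 and 0.02 in Mino). TRNT1, which adds the CCA end, had 0.31 and 0.38, the tRNA exporter gene XPOT 0.14 and 0.23, and the methyltransferase gene NSUN2 0.13 and 0.22. Mitochondria use a separate RNase P made of protein alone: TRMT10C had 0.15 and 0.06, KIAA0391 (PRORP, its nuclease) 0.17 and 0.04, and HSD17B10 −0.23 and −0.04. Of 12 genes of ribosomal RNA spacer processing, 0 differed by 1.5-fold (medians 0.03 and −0.07), with BOP1 at −0.11 and −0.05, LAS1L at −0.07 and −0.05 and WDR12 at 0.15 and 0.05. Of 14 genes of nuclear RNA decay and 3′ trimming, 0 did so (medians 0.01 and 0.17), with EXOSC9 at 0.20 and 0.14, PARN at 0.08 and 0.17 and EXOSC8 at 0.07 and 0.22.

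Between the lines 28.7% of all tested symbols were higher and 38.8% lower in Z138, and the counts of these lists are given beside those shares. Higher in Z138 were 11 of 15 tRNA maturation genes (1 lower), with TRMT1 at 22.9 and 23.6 FPKM in Z138 and 6.66 and 6.66 FPKM in Mino, hairpin library first (adjusted p = 1.38e-05 in limma), and TRMT61A next (adjusted p = 2.66e-05). Of 12 spacer processing genes, 8 were higher (0 lower), with BOP1 at 52.4 and 56.7 FPKM in Z138 and 13.6 and 14.1 FPKM in Mino (adjusted p = 5.08e-06) and PDCD11 next (adjusted p = 1.79e-05). Of the mitochondrial enzyme's 3 genes, 2 were higher in Z138 (0 lower), and of the 14 genes of the RNA decay list 7 were higher and 1 lower, with EXOSC4 (adjusted p = 1.31e-05) and TOE1 (adjusted p = 0.000109) furthest apart. The median log2 differences were 0.54, 1.07, 0.86 and 0.33 for these 4 lists, beside −0.12 over all tested symbols.

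Other short RNAs and other RNAs without a poly(A) tail differed in part as RMRP and RPPH1 did. Of 8 symbols for further polymerase III transcripts, 7 were listed at 0 throughout, and BCYRN1 was at 5.90 and 4.86 FPKM in the Z138 hairpin and control libraries and at 34.7 and 18.2 FPKM in those of Mino. BCYRN1 has near-identical copies, so its values are uncertain. Of 23 small Cajal body RNA genes, which guide modification of spliceosomal RNAs, 9 were tested and above 0 in every library, with medians of 0.23 in Z138 and 0.21 in Mino. SCARNA2 was at 5.39 and 1.52 FPKM in the Z138 hairpin and control libraries and at 3.84 and 1.64 FPKM in those of Mino. SCARNA13 had log2 differences of 0.62 in Z138 and 0.80 in Mino. These 2 were higher by 1.5-fold in both lines, as were 16 of the 11150 tested symbols above 0 in every library. Of the 9 genes, 4 in Z138 and 3 in Mino were higher by that much, and 2 in Z138 and 0 in Mino were lower. Among the 11150 symbols, 84 in Z138 and 76 in Mino were higher, and 60 and 108 were lower. SCARNA22, in contrast, was at 90.6 and 155 FPKM in the Z138 hairpin and control libraries and at 39.2 and 33.8 FPKM in those of Mino, and SCARNA12 had −0.14 and −0.05. SCARNA21 was listed at 0 in both Mino libraries and SCARNA15 in 3 libraries. SCARNA2, SCARNA13 and SCARNA22 were named after their values were seen.

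Replication histone genes, whose mRNAs end in a stem-loop in place of a poly(A) tail, had a median of 0.89 in Z138 and −0.08 in Mino over the 43 genes tested and above 0 in every library. At least 1.5-fold higher in the hairpin library were 31 of them in Z138 and 6 in Mino, HIST1H4H (1.31 and 0.77) among those in both lines, and 0 in Z138 and 4 in Mino were lower by that much. Over all tested symbols, 0.94% and 0.923% were higher and 0.819% and 1.24% lower in Z138 and Mino. Among the 11150 of them above 0 in every library, 84 and 76 symbols were higher and 60 and 108 lower. HIST1H3B had 2.26 in Z138 and 0.55 in Mino. Over the 26 symbols above 0 in every library whose longest transcript spans 200 to 400 bases, RMRP and RPPH1 left out, the medians were 0.59 in Z138 and 0.02 in Mino, 14 and 3 symbols were at least 1.5-fold higher, and 0 and 2 were lower by that much. Replication histone genes made up 12 of these 26, and over the other 14 the medians were 0.23 in Z138 and 0.18 in Mino, with 4 and 3 symbols higher and 0 and 1 lower by 1.5-fold. What part the length of an RNA or its missing poly(A) tail had in the values of RMRP and RPPH1 was not tested, and no source used here says if poly(A) selection was applied.

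**Figure D4:**
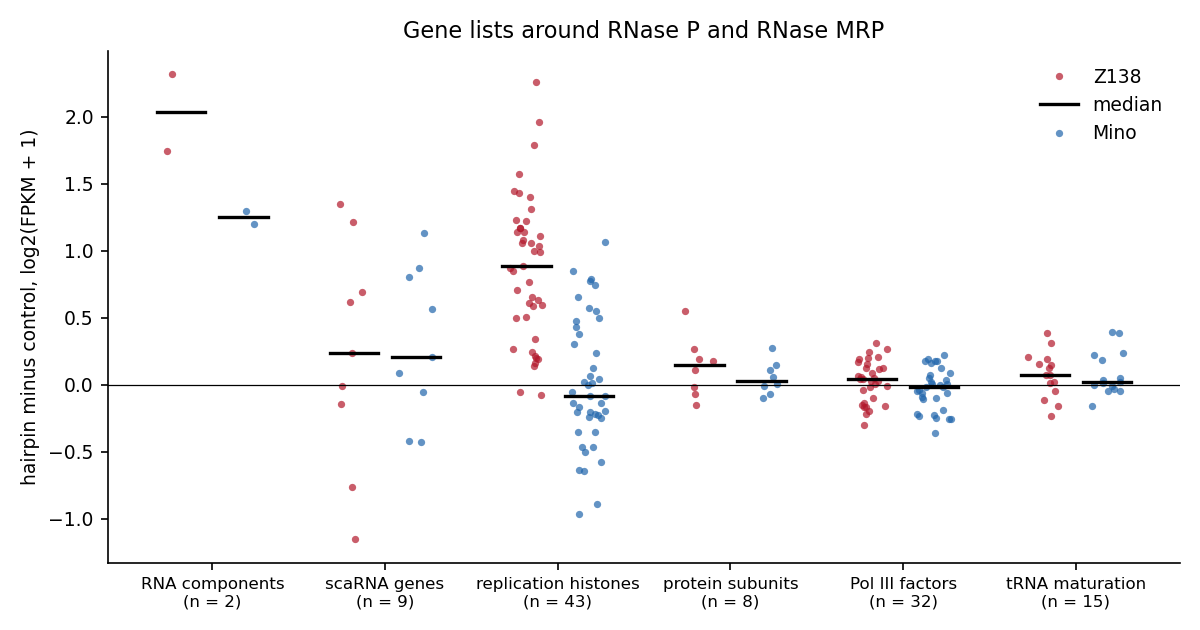
Hairpin minus control on the log2(FPKM + 1) scale for the RNA components and 5 gene lists, 1 point per gene and line, with a black line at each median; genes listed at 0 in any library are left out. The protein subunits, polymerase III factors and tRNA maturation genes lie near 0 in both lines, histone genes spread upwards in Z138, and RMRP and RPPH1 stand high in both.

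The symbols whose pattern over the 4 libraries was most like that of the pair were mostly small RNAs. Likeness was the Euclidean distance between log2(FPKM + 1) profiles, each centred on its own mean, over 4 libraries and all symbols of at least 5 FPKM on average and above 0 throughout. RPPH1 was at 0.43 from RMRP, and only SNORA18 was nearer to RMRP, at 0.30. SNORA18, an H/ACA small nucleolar RNA, was at 63.2 and 17.2 FPKM in the Z138 hairpin and control libraries and at 85.7 and 47.9 FPKM in those of Mino. SNORD17 followed at 0.56 from RMRP and 0.81 from RPPH1, DMC1 at 0.96 and 1.11, SNORA57 at 1.00 from RMRP and CD9 at 1.22 from RPPH1. DMC1, a meiotic recombinase gene, was at 7.54 and 2.16 FPKM in the Z138 hairpin and control libraries and at 16.4 and 14.5 FPKM in those of Mino, so in Mino it did not share the difference between hairpin and control.

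**Figure D5:**
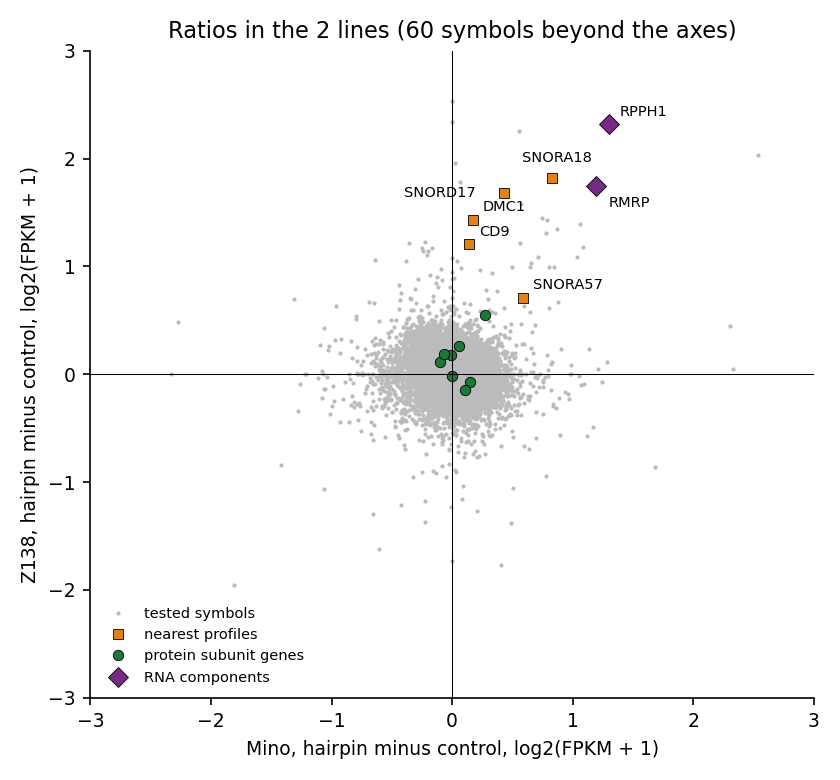
Hairpin minus control in Mino (x axis) and Z138 (y axis) on the log2(FPKM + 1) scale for 11484 tested symbols, of which 60 lie beyond the axes. RMRP and RPPH1 stand at the upper right, the nearest profiles (SNORA18, SNORD17, SNORA57, DMC1 and CD9) lie between them and the vertical axis, and the protein subunit genes lie in the central cloud or at its edge.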

How the data were processed

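Per the labels' protocols, RNA came from a column kit and libraries from Illumina's TruSeq RNA kit. The authors deposited 1 table of FPKM values, per the file headers; TopHat and hg19 are named in the submitters' processing notes, and no source used here names the program that gave FPKM. All 4 value columns were used. Low values did not give whole reads, so depth is unknown and no counting interval is given.

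Values were analysed as log2(FPKM + 1) for symbols that averaged 1 FPKM or more. Hairpin and control were compared within each line by size alone (1.5-fold and 2-fold). The lines were compared with limma 3.58.1 in R 4.3.3 (cell line and hairpin additive, mean-variance trend, 1 residual degree of freedom per symbol, Benjamini-Hochberg over 11484 symbols), which was checked on simulated data. The simulation took its spread from the fitted model and changed 200 symbols, whereas 67.4% of symbols passed in the data. It cannot show if p-values from single cultures are sound. The libraries are single cultures, so p-values rest on how alike the 2 lines were in their hairpin difference and on the variance borrowed from all symbols. They do not measure a spread of replicate cultures. Members and lists were chosen with earlier results of these data known; histone and length lists were added after values were seen.

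Named genes were the members, other subunits, BTK, 4 measured neighbours on each side in RefSeq gene order, the 5 nearest profiles to each RNA, and from each list up to 3 genes of at least 5 FPKM with the widest differences of the same sign plus up to 2 furthest apart between lines. Transcript length and GC content came from the longest GENCODE 29 transcript and were found for 97.8% of tested symbols. KIAA0391 was matched to PRORP through RefSeq. Alternatives were other pseudocounts, filters and scalings, a GC and length correction, other model terms, and each library left out.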

Additional observations from a re-analysis of the deposited data

Results flagged for a closer look

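The hairpin minus control difference had opposite signs in the lines for 6 of the 8 protein subunit genes, which is why they are listed here. Of 11150 tested symbols above 0 in every library, 6280 were higher with the hairpin in Z138, 5321 in Mino and 2618 in both. Opposite signs were thus common, and the count is not read as a trait of these genes. With 1 pair of libraries per line, the contrast between lines was not tested. On the log2(FPKM + 1) scale the Z138 difference minus the Mino difference was 0.21 for POP1, −0.22 for POP4, 0.19 for POP5, −0.26 for POP7, −0.02 for RPP14 (−0.0169) and 0.26 for RPP38. Each was smaller than the 0.55 that RMRP and the 1.02 that RPPH1 showed between lines without a change of sign.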

How the results depend on the processing

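The mean hairpin minus control differences of RMRP and RPPH1 kept their sign under 5 other settings and in each line alone, running from 1.20 to 1.75 and from 1.30 to 2.32, with Mino alone lowest and Z138 alone highest. The pair was chosen for higher values in both hairpin libraries, so its sign in each line alone was fixed by that choice. The other settings rescale the same 4 libraries and are no independent support. With GC content and length trends removed the mean differences were 1.41 and 1.75. Those trends were fitted over all tested symbols of known length, with wide differences capped. An effect confined to a few short RNAs could remain after it and was not tested. The median of the protein subunit genes ran from 0.03 to 0.14. Between lines, 4 to 5 protein subunit genes passed in limma in 13 alternatives. Quantile normalization turned POP4 (0.0107) and RPP30 (0.0100), neither of which passed. The median difference of all symbols between lines was −0.12 as deposited, −0.002 under median-of-ratios scaling and 0.05 under quantile normalization, and the share of calls that were higher in Z138 was 42.5%, 49.8% and 53.1%. POP1, POP5, POP7, RPP14 and RPP25 kept sign and call under every alternative that held them; POP1 was below the minimum of 5 FPKM in 1. The RNA components between lines moved from −1.95 to −0.20 (RMRP) and from −2.36 to −0.04 (RPPH1) when single libraries were left out. The labels number no replicates; libraries with the same vector were paired across the lines by the hairpin term of limma, and with cell line alone in the model 5 protein subunit genes and 8016 of all symbols passed, against 5 and 7745 with it. Unknown depth and single cultures limit every hairpin difference.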
